A study of Homo sapiens with 12 samples.

Results

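BT-549 cells, a mesenchymal line from a triple-negative breast cancer (TNBC), were studied with a MUC1 hairpin under control of a tetracycline switch (tet-MUC1shRNA), in which doxycycline (DOX) turns on the hairpin and lowers MUC1, including its transmembrane MUC1-C subunit. Accessible chromatin was mapped by ATAC-seq, in which a transposase tags open DNA for sequencing, in 3 replicates of cells treated with vehicle (0.1% DMSO) and 3 replicates treated with DOX for a week. Every cell compared carried the hairpin construct, and no cells with a control hairpin or without a hairpin were among the libraries, so that the effects of DOX and of MUC1 silencing share 1 contrast. A second field of the labels calls the vehicle cells untreated. The authors divided each accessible region into bins of 100 bp, and each region is represented below by the bin with the highest mean unscaled coverage over the 6 libraries. This gave 46298 regions, of 125475 regions in the tables of BT-549 and of DU-145, a prostate cancer line that carried the same construct. The study's methods call the replicates biologically independent, the labels do not say whether they were separate cultures, and p-values measure only the spread between these libraries.

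Accessible regions at transcription start sites (TSSs) are promoters, and many of those away from a TSS are enhancers, whose opening and closing follow the transcription factors that bind them. Type I interferon (IFN) acts through transcription factors, IRF9 among them, that bind the interferon-stimulated response element (ISRE) of antiviral genes, whereas AP-1, a dimer of JUN and FOS family proteins, binds a short palindrome at enhancers of mesenchymal and stress-responsive genes. MUC1-C is a transmembrane oncoprotein that has been linked to chromatin remodeling and to inflammatory signaling in cancer cells.

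The libraries of DOX-treated cells were much shallower. The coverage summed over the highest bins was 1323328 to 2061209 in the vehicle libraries and 372354 to 468686 in the DOX libraries, a 4.24-fold difference of the means, and the median region had a coverage of 16.3 to 25.9 fragments against 3.88 to 5.2 fragments per base. Between 3.63% and 8.24% of regions rounded to a coverage of 0 in the DOX libraries, against at most 0.03% in the vehicle libraries. Normalized coverage below is coverage rescaled by effective library size to the mean of the 6 libraries, and a change is one relative to the other regions of the same libraries: a loss or gain shared by all regions cannot be seen on this scale. Depth is confounded with treatment, and its part in the results was not tested beyond the thinning of the vehicle libraries given below. All 8 mesenchymal marker genes (VIM, ZEB1, CD44, FN1, CDH2, AXL, SPARC and CAV1) had an accessible promoter. Of the 10 luminal and epithelial markers, 6 had one (GATA3, FOXA1, ERBB2, ESRP1, GRHL2 and KRT19), whereas CDH1, EPCAM, ESR1 and PGR had none. Accessible promoters were also found for 3 of the 8 prostate and 2 of the 8 blood and endothelial markers.

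The sequences around 6 regions are shown because they hold elements whose frequency in opening and closing regions is compared below, and the values of the regions are given below. Each is 200 bases of the plus strand of GRCh38 centered on the highest bin. In the first 3, from regions that lost relative coverage with DOX, the capitals mark matches to the ISRE core AAANNGAAA, which reads TTTCNNTTT where it lies on the other strand. SAMD9 (promoter, chr7:93118051-93118250) and IFIT2 (upstream of the gene, chr10:89295751-89295950) are antiviral genes, and CDK6 (intron, chr7:92718051-92718250) is a cell cycle kinase. The last 3 are from regions that gained relative coverage. In those far upstream of FUT8 (chr14:65356451-65356650) and at the promoter of ENTPD6 (chr20:25223251-25223450), the capitals mark the E-box CAGGTG, which reads CACCTG on the other strand. In that of an intron of CLDN4 (chr7:73822651-73822850) they mark the AP-1 site TGAGTCA or TGACTCA. The FUT8 and ENTPD6 sequences each hold 1 AP-1 site as well, left in lower case.
SAMD9: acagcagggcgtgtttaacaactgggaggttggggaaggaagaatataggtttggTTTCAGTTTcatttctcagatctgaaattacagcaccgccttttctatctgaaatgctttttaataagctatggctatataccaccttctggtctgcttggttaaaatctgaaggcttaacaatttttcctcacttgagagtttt
IFIT2: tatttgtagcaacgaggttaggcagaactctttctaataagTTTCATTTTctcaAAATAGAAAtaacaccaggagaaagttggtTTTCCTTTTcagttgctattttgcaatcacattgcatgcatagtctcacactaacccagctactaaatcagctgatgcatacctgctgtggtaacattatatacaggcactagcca
CDK6: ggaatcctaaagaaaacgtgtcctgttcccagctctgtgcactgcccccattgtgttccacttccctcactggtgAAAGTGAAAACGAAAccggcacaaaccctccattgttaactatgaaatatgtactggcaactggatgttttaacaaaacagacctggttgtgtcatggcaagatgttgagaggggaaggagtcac
FUT8: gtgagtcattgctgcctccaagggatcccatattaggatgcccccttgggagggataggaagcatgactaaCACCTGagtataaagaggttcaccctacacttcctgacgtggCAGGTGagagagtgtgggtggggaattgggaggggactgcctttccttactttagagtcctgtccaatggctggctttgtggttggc
ENTPD6: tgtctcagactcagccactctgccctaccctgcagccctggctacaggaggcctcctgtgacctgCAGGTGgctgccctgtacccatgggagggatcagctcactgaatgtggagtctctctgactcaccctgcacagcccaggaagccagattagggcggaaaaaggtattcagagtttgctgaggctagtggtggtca
CLDN4: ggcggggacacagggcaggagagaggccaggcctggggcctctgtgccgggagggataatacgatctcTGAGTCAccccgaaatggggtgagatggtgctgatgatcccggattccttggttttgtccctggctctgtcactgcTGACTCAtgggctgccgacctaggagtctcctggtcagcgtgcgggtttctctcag

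Both directions of change were found at many regions. A region counted as opening or closing if it changed 2-fold or more with an adjusted p below 0.01 in edgeR's quasi-likelihood test, run on all 46298 regions. In bulk cells, a change in fewer cells and a smaller change in each cell cannot be told apart. In all, 1706 regions opened (3.68% of those tested) and 2644 closed (5.71%), so that 39.2% of the 4350 calls were in the opening direction. The median log2 fold change of all regions was -0.05. Distal regions, over 3 kb from any TSS, closed more often: of 23419, 982 opened (4.19%) and 2038 closed (8.7%), with a median log2 fold change of -0.31, whereas of the 22879 promoter regions, 724 opened (3.16%) and 606 closed (2.65%), with a median of 0.12. The calls depended on the tool, since DESeq2 called 1093 opening and 911 closing regions, 54.5% of them opening, and gave no adjusted p to 15260 regions. With the vehicle libraries thinned to the depth of the DOX libraries, 1034 regions opened and 1403 closed. Leaving out DOX replicate 1, 2 or 3 left 1667, 1649 or 1506 closing regions.

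**Figure D1:**
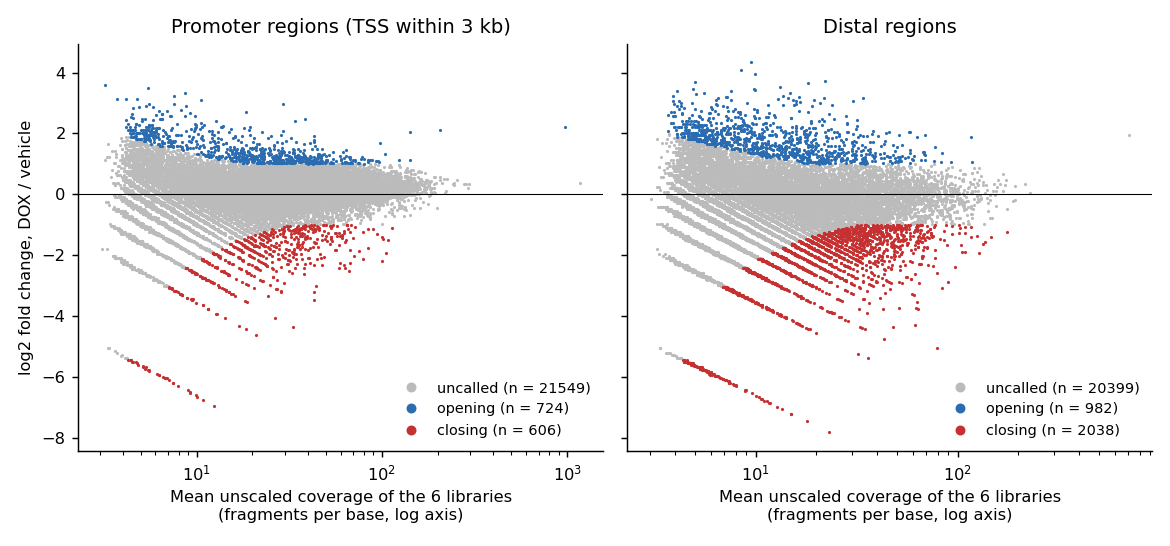
Log2 fold change (DOX over vehicle, vertical axis) of each region against its mean unscaled coverage over the 6 libraries (fragments per base, log axis), for 22879 promoter and 23419 distal regions. Blue points are opening, red points closing and gray points uncalled regions; the closing points lie mostly at mid coverage among distal regions, and the slanted stripes at the lower left are regions with few fragments in the DOX libraries.

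Closing and opening regions differed in coverage and base composition. The median closing region went from a normalized coverage of 24.5 in vehicle to 6.16 with DOX, and the median opening region from 9.87 to 31. On the unscaled values, these medians were 40.1 and 2.28 for closing and 16.2 and 11.4 for opening regions. The normalized values of the 2 groups did not overlap in 99.8% of closing, 96.3% of opening and 39.3% of all regions; the calls used the same values, and these shares are a description. The median GC content of the highest bin was 46% in closing, 54% in opening and 54% in all regions. In 5 equal bins of regions by GC content, the share that closed went from 11% in the lowest through 9.13%, 5.69% and 2.34% to 0.378% in the highest, whereas the share that opened stayed between 3.44% and 3.87%. With offsets that remove the trend with GC content from each library, 1571 regions opened and 1939 closed; the part of GC content in the calls of single regions was not tested further.

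The authors kept only regions found in at least 3 libraries of either condition. A region without any DOX peak therefore had to hold one in all 3 vehicle libraries, and the counts of peaks are a description. In the authors' peak lists, made per library, every closing region held a peak in all 3 vehicle libraries, and 1660 of the 2644 (62.8%) held none in any DOX library. Only 2 of the 1706 opening regions held no DOX peak, and 1237 (72.5%) already held a peak in all 3 vehicle libraries, while 31 had a peak in all 3 DOX libraries and in no vehicle library. The DOX libraries had fewer peaks in all, 30450 to 39837 against 65204 to 93929 in the vehicle libraries, and uncalled regions, too, held a DOX peak less often (46.5% to 52.5%) than a vehicle peak (97.5% to 99.5%). Promoter regions held 64%, 64.1% and 64.2% of the summed coverage in the vehicle libraries and 70.2%, 70.3% and 69.4% in the DOX libraries. The DOX libraries were all above the vehicle libraries, by 5.88 percentage points of the means (64.1% ± 0.112 against 70% ± 0.468, SD, n = 3), with an exact two-sided permutation p of 0.1, the smallest that 3 against 3 libraries can give.

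The promoters of the genes that the study followed were read first. Each value is that of 1 bin, and the enhancer-like elements that the study assayed at NOTCH1 and EGR1 lie outside these bins. The MUC1 promoter region (chromosome 1, 155193501 to 155193600, upstream of the TSS) had normalized coverages of 104, 141 and 108 with vehicle and 80.3, 109 and 102 with DOX. The groups overlapped, and the log2 fold change of -0.28 (SE 0.15) did not pass the test (edgeR adjusted p = 0.205); since the hairpin targets the RNA, this is no measure of the knockdown. With loess offsets MUC1 changed by -0.60 (edgeR adjusted p = 0.00141), and summing all bins of its region gave 0.12. A much less covered region at another MUC1 TSS (chromosome 1, 155188201) had 9.57, 11.8 and 7.11 against 3.1, 2.79 and 4.27. Its groups did not overlap, but it was not called (log2 fold change -1.40, SE 0.60, edgeR adjusted p = 0.103). NOTCH1, a receptor of cell fate signaling, had 29.7, 38.1 and 34.5 with vehicle and 31.3, 37.9 and 51.5 with DOX at its promoter (0.30, SE 0.23, edgeR adjusted p = 0.426). Its call depended on the setting, with 1.04 (edgeR adjusted p = 1.67e-04) for the highest bin after scaling, 0.55 (edgeR adjusted p = 0.00381) for the sum of bins and -0.02 with a replicate block and GC offsets. EGR1, an immediate early transcription factor, had 159, 152 and 163 with vehicle and 205, 199 and 190 with DOX, which did not overlap (log2 fold change 0.33, SE 0.12, edgeR adjusted p = 0.0306); the sign was opposite with loess offsets (-0.08) and for the sum of bins (-0.21). ARID1A, a subunit of the BAF chromatin remodeler, had 62.9, 71.5 and 60.2 with vehicle and 44.3, 81.6 and 67.1 with DOX (-0.04, SE 0.19, edgeR adjusted p = 0.921).

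LY6E and JUN stood out among these genes, in opposite directions. The region with the highest coverage within 3 kb of a TSS of LY6E, an interferon-inducible surface protein gene, lay on chromosome 8 from 143024101 to 143024200. This bin lay between annotated genes, 1601 bp downstream of an annotated TSS. It had 134, 105 and 109 with vehicle and 19.4, 18.5 and 34.3 with DOX, all DOX values being far below all vehicle values, and closed by a log2 fold change of -2.20 (SE 0.22, edgeR adjusted p = 7.7e-15). A weaker region at another LY6E TSS (chromosome 8, 143018701) had 52.2, 54.6 and 50.2 against 29.2, 42.8 and 40 (log2 fold change -0.50, edgeR adjusted p = 0.115). The JUN promoter had 115, 116 and 129 with vehicle and 246, 178 and 175 with DOX, without overlap. Its log2 fold change of 0.74 (SE 0.12, edgeR adjusted p = 1.1e-06) passed the limit on p but not that of 2-fold, and with loess offsets it was 0.35. A distal region upstream of JUN (chromosome 1, 58849001 to 58849100), named after its values were seen, opened from 79.5, 77 and 89.7 to 209, 184 and 215 (log2 fold change 1.32, SE 0.13, edgeR adjusted p = 5.8e-16).

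The opening promoters with the largest fold changes, among the 272 that passed the rule on coverage, were at genes of varied roles. CHST11, a chondroitin sulfotransferase, came first: an alternative promoter in its intron (chromosome 12, 104588701 to 104588800) had 11.8, 15.6 and 11 with vehicle and 112, 118 and 79.5 with DOX, and opened by a log2 fold change of 2.97 (SE 0.21, edgeR adjusted p = 5.3e-24). CSNK1G2, a casein kinase 1 gene (chromosome 19, 1940901 to 1941000), had 14.9, 13.8 and 13.8 against 56.3, 62 and 59.1, with little spread in either group (2.06, SE 0.24, edgeR adjusted p = 9.9e-12). MAP2K7, the kinase that activates JNK, had 29, 33.2 and 26.3 against 113, 90.3 and 102, so that every DOX value was above every vehicle value (1.77, SE 0.18, edgeR adjusted p = 2.0e-14). CBX8, a chromodomain subunit of Polycomb repressive complex 1, had 18.6, 15.6 and 14.1 against 43.7, 70.4 and 63.6, again without overlap (1.85, SE 0.24, edgeR adjusted p = 3.3e-10). The other promoters were those of CCDC9 (log2 fold change 1.92), ENTPD6, an ectonucleotidase family gene with the sequence shown above (1.86), and NOC2L, a ribosome biogenesis and histone-binding factor (1.73). All 7 of these promoters held a peak in every one of the 6 libraries.

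Among the 83 closing promoters that passed the same rule, complement and antiviral genes came first. CFB, complement factor B (chromosome 6, 31945801 to 31945900), had 68.9, 75.5 and 59.1 with vehicle and 17.8, 6.72 and 15.2 with DOX (log2 fold change -2.42, SE 0.29, edgeR adjusted p = 2.2e-11). C1S, the serine protease of the classical complement pathway (chromosome 12, 7060601 to 7060700), had 80.1, 79.4 and 75.2 against 8.19, 21.9 and 17.9 (-2.26, SE 0.26, edgeR adjusted p = 5.1e-12). At both genes, all vehicle values were far above all DOX values. OAS2, an enzyme that makes oligoadenylates in response to double-stranded RNA (chromosome 12, 112978401 to 112978500), had 75.9, 66.1 and 66 against 7.52, 12.3 and 20.5 (-2.26, SE 0.28, edgeR adjusted p = 6.8e-11). MX1, an antiviral GTPase (chromosome 21, 41420301 to 41420400), had 48.3, 59.1 and 49.9 against 11.2, 5.94 and 16.6 (-2.14, SE 0.31, edgeR adjusted p = 2.2e-08). PPP2R1B, a scaffold subunit of protein phosphatase 2A, fell by 1.88 on the log2 scale (82.9, 94.6 and 83.7 against 24.7, 21.2 and 24.9), and PPA2, the mitochondrial inorganic pyrophosphatase, fell by 1.84 (39.5, 34.1 and 32.4 against 14.9, 10.4 and 7.68). BCL2L13, a mitochondrial BCL2 family gene, had 39, 37.3 and 39.8 against 0, 24.8 and 7.78, with a wide spread among the DOX libraries (-1.94, SE 0.36), and by limma-trend it had an adjusted p of 0.0441. PSMG3, a proteasome assembly chaperone, had 54.3, 59.7 and 49.6 against 16.3, 10.4 and 9.62 (-2.10, SE 0.30), but the bin with the highest mean after scaling gave 0.17 and the sum of the bins -0.31.

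**Figure D2:**
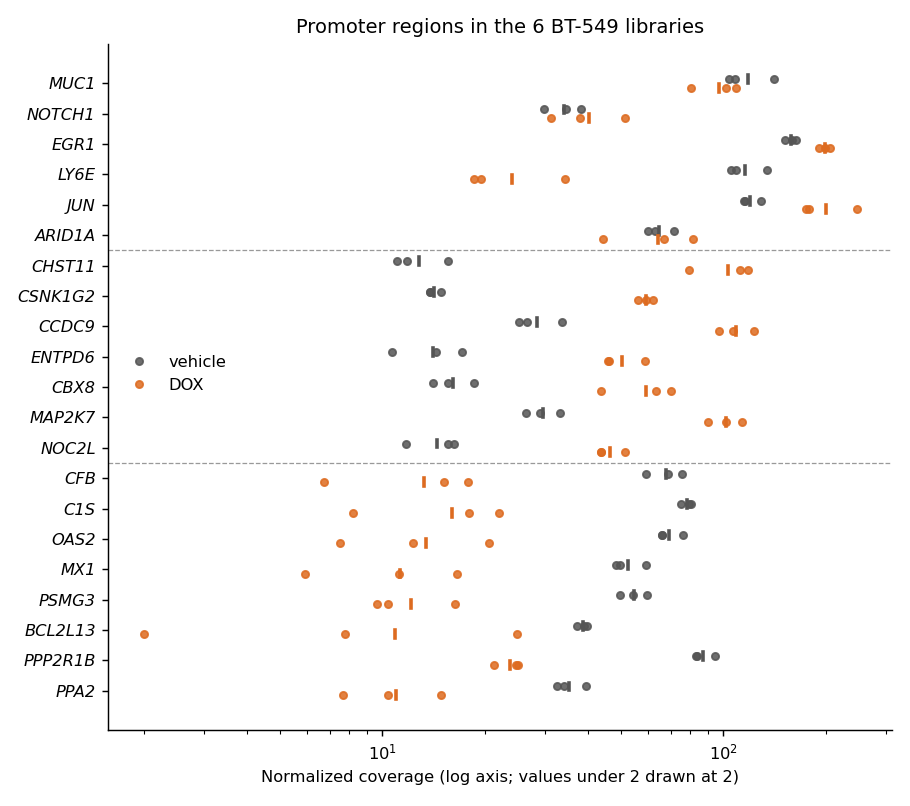
Normalized coverage (log axis) of the promoter regions of 6 genes that the study followed (top), of 7 opening promoters (middle) and of the 8 closing promoters (bottom) with the largest fold changes, in each of the 3 vehicle (gray) and 3 DOX libraries (orange), with vertical bars at the group means. The LY6E region drawn is the one 1601 bp downstream of a TSS. The groups are apart for all 15 genes in the lower blocks, which were chosen for this, and overlap for MUC1, NOTCH1 and ARID1A; the BCL2L13 value drawn at the left edge is a 0.

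The opening distal regions with the largest fold changes, among 147 that passed the rule, were mostly in introns. The region far upstream of FUT8, the core fucosyltransferase of N-glycans, whose sequence with 2 E-boxes is shown above, went from 6.65, 6.78 and 7.18 to 82.2, 92.4 and 93.2 (log2 fold change 3.71, SE 0.24, edgeR adjusted p = 4.3e-27). It had the largest fold change of the 147, with almost no spread in either group. CYFIP2, a subunit of the actin-regulating WAVE complex, held an intronic region (chromosome 5, 157390701 to 157390800) with 13, 17 and 14.6 against 83.5, 89.8 and 87.7 (2.56, SE 0.21, edgeR adjusted p = 2.0e-19). PXN, the focal adhesion protein paxillin, held one (chromosome 12, 120231701 to 120231800) with 13.5, 15 and 10.2 against 80.2, 75.1 and 70.2 (2.48, SE 0.23, edgeR adjusted p = 7.1e-17). BCAR3, an adaptor that binds the focal adhesion protein BCAR1, held one (chromosome 1, 93779901 to 93780000) with 17.3, 18.7 and 16.3 against 64.1, 131 and 93.6 (2.44, SE 0.21, edgeR adjusted p = 4.6e-19). In each of these the DOX values were several times the vehicle values. A region in an intron of the zinc and manganese transporter SLC30A10 (3.01, with the TSS of ZC3H11B nearest), and regions in introns of CA6, a secreted carbonic anhydrase (2.94), of the SLCO1B3-SLCO1B7 transporter locus (2.41) and of the annexin ANXA10 (2.40) completed the 8.

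The closing distal regions with the largest fold changes, among 509, were led by IRF1, a transcription factor of the interferon response. An intronic region of an annotated IRF1 transcript (chromosome 5, 132481301 to 132481400) had 102, 99.2 and 95.5 with vehicle and 10.9, 12.9 and 11 with DOX (log2 fold change -3.07, SE 0.27, edgeR adjusted p = 5.1e-18). Within a group these values hardly varied, and between the groups they did not overlap. SOD2, the mitochondrial superoxide dismutase and a known NF-kB target, held a region (chromosome 6, 159677501 to 159677600) with 69.3, 67.7 and 74.3 against 5.85, 4.99 and 15.5 (-2.80, SE 0.31, edgeR adjusted p = 4.4e-13). EYA4, a developmental transcriptional coactivator and phosphatase, held an intronic region (chromosome 6, 133502801 to 133502900) with 100, 112 and 109 against 9.54, 17.6 and 16.9 (-2.87, SE 0.26, edgeR adjusted p = 8.4e-18). VTCN1, an immune checkpoint ligand of the B7 family, held one (chromosome 1, 117148101 to 117148200) with 46.5, 55.9 and 51.5 against 7.93, 9.33 and 9.1 (-2.47, SE 0.33, edgeR adjusted p = 1.8e-09). At all of these the vehicle libraries were high and the DOX libraries low. The others were near NCEH1, a cholesterol ester hydrolase (-2.78), and in CBFA2T2, a transcriptional corepressor (-2.72), and ANKRD33B (-2.49). None of these 7 had a peak in all 3 DOX libraries, and all had one in the 3 vehicle libraries.

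In single DOX libraries, 3.63% to 8.24% of all regions rounded to a coverage of 0. In 146 of the 2644 closing regions the values of all 3 DOX libraries rounded to 0. Against a floor of 3 fragments summed over the DOX group, the most covered of them in vehicle cells lay in an intron of AOAH, a lipopolysaccharide-deacylating hydrolase, with 26.6, 26 and 33.7 with vehicle and 1.38, 0 and 0.731 with DOX, and was at least 10.4-fold lower. A region near PLSCR1, an interferon-inducible phospholipid scramblase, with 23.1, 19.5 and 23.3 against 0, 0 and 0.849, was at least 8.03-fold lower. Regions nearest to GPD2, over 100 kb from its TSS, and MERTK, a receptor kinase for apoptotic cells, were at least 6.75-fold and 6.08-fold lower. The floors cover counting error only, and reads of the same PCR product were removed by the authors.

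In each gene list below, a gene's promoter is the region of highest coverage within 3 kb of its TSSs. Type I IFN genes were the list whose promoters closed most often. Of the 51 genes, 50 had an accessible promoter in 49 regions (PARP9 and DTX3L share 1); 21 of the 49 closed (42.9%, against 2.65% of all promoter regions), none opened, and the median log2 fold change was -1.0, against 0.12 over all promoter regions. Antiviral effector genes were among them. ISG15, the ubiquitin-like modifier, had 90.6, 104 and 96.4 with vehicle and 34.8, 27.8 and 24.4 with DOX at its promoter (-1.78, SE 0.22, edgeR adjusted p = 5.3e-11). GBP1, a guanylate-binding GTPase, had 39.9, 38.8 and 31.7 against 6.29, 8.92 and 8.49 (-2.19, SE 0.36, edgeR adjusted p = 9.4e-07). SAMD9, an antiviral factor whose promoter sequence is shown above, had 27.6, 25.6 and 32.3 against 3.13, 5.59 and 7.12 (-2.35, SE 0.43, edgeR adjusted p = 9.7e-06). For these genes all vehicle values were above all DOX values. BST2, the tether of budding virions, had 25.8, 28.7 and 20.9 against 0.644, 0 and 1.81, so that almost no fragment was left in the DOX libraries. The others were OAS1 (-2.41), OAS2 (-2.26), OAS3 (-1.11), OASL (-1.96), MX1 (-2.14), IFIT3 (-1.54), IFIT5 (-1.14), IFI27 (-2.10), IFI35 (-2.65), IFI44 (-1.77), IFI44L (-2.86), IFIH1 (-1.07), RSAD2 (-1.34), XAF1 (-1.0), IFITM1 (-1.80), GBP2 (-1.97) and SAMD9L (-1.92).

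The IFN receptor chains and STAT2, IRF1, IRF3, IRF7 and IRF9, which relay the signal, were not called at the best covered region of their promoters. Less covered promoter regions were called at IRF1 (21.1, 12.6 and 17.5 against 3.31, 8.71 and 3.04, a log2 fold change of -1.91 with an edgeR adjusted p of 0.00357) and at IRF3 (a mean of 19.1 with vehicle and 47.6 with DOX, 1.28). The main IRF1 region had 124, 115 and 120 with vehicle and 102, 102 and 152 with DOX (log2 fold change 0.01, SE 0.14, edgeR adjusted p = 0.982), in contrast to the distal region above. STAT2 had 111, 97.9 and 87.9 against 89.2, 133 and 113 (0.15, edgeR adjusted p = 0.521). In both the groups overlapped. The values were 0.60 for the receptor chain IFNAR1, 0.24 for IFNAR2, 0.56 for IRF3, 0.14 for IRF7, -0.61 for IRF9, 0.40 for the adaptor MAVS and -0.39 for the RNA sensor RIGI. IFI6, an IFN-inducible mitochondrial protein gene (-0.79, edgeR adjusted p = 0.00146), and the promoter that PARP9 and DTX3L share (-0.71, edgeR adjusted p = 0.003) were under the limit on p but changed by less than 2-fold.

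Of 84 distal regions nearest to IFN genes, 17 closed (20.2%, against 8.7% of all distal regions) and 1 opened, with a median of -1.12 against -0.31 over all distal regions. IRF1 had 3 of them by this count, one with 57.2, 45.9 and 53.2 with vehicle and 4.92, 4.52 and 4.36 with DOX (chromosome 5, 132457701 to 132457800; log2 fold change -3.24, SE 0.38, edgeR adjusted p = 6.5e-12) and another with 52.7, 62.7 and 60.1 against 1.73, 1.63 and 3.16. MX1 had an intronic region (chromosome 21, 41460101 to 41460200) with 77.4, 79.8 and 71.3 against 11.9, 3.95 and 2.36 (-3.78, SE 0.35, edgeR adjusted p = 6.6e-17). In each of these the vehicle values were close to each other and all DOX values were far below them. The IFIT2 region shown above, with 3 ISRE matches, had 13.8, 10.1 and 16.7 against 2.93, 0 and 2, and IFIT2 had a further region with 40.3, 34 and 43.3 against 4.71, 1.31 and 2.36. Other closing regions were nearest to GBP1, OAS2 (2 regions), RSAD2, IFIH1, IRF2, TLR3, SAMD9 (2 regions) and RIGI, and the opening one lay beyond IFI44 (16.2, 15.7 and 17 against 37.1, 29.6 and 44.8, a log2 fold change of 1.23). Over the alternative scalings, filters, tests and left-out libraries, between 10 (DESeq2) and 21 of the IFN promoters closed, none opened, and the median lay between -0.70 and -1.12.

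**Figure D3:**
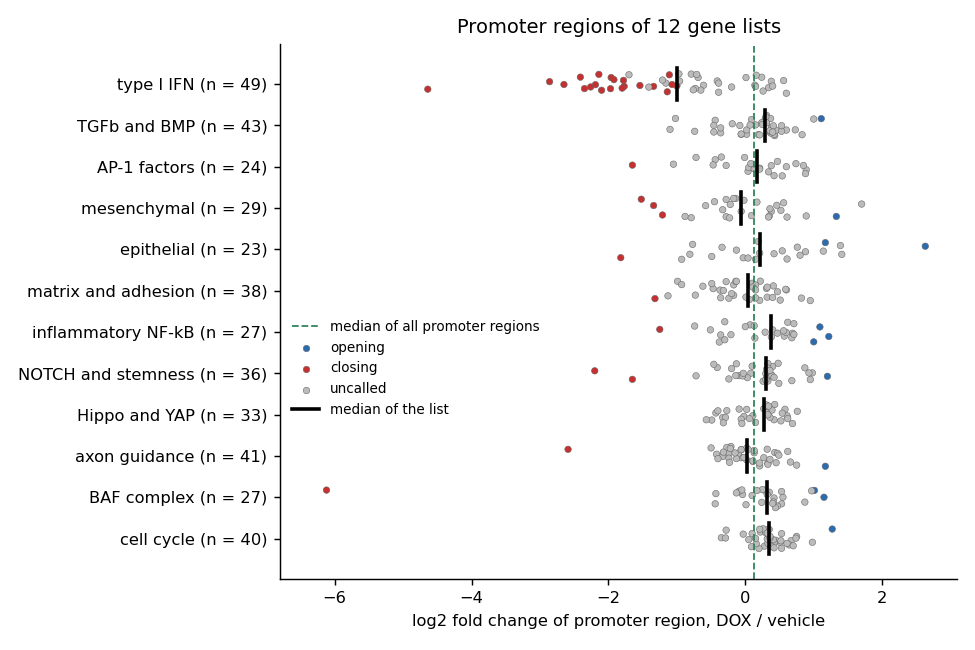
Log2 fold change (DOX over vehicle) of each promoter region in 12 gene lists, in blue where opening, red where closing and gray where uncalled, with a black bar at the list's median and a dashed line at the median of all promoter regions (0.12). The type I IFN list lies mostly to the left, with a median of -1.0, the medians of the other lists lie between -0.06 and 0.38, and the leftmost point is BCL7A, whose DOX values are all 0, so that its place depends on the fit.

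Inflammatory NF-kB genes changed in both directions. Of 27 promoters, 3 opened and 1 closed (11.1% and 3.7%, against 3.16% and 2.65% of all promoter regions; median 0.38), and of 69 distal regions 3 opened and 13 closed (4.35% and 18.8%, against 4.19% and 8.7% of all distal regions; median -0.74). IL6, the inflammatory cytokine, closed at its promoter (81.1, 86.2 and 103 against 30.5, 31.4 and 48.2, a log2 fold change of -1.25 with an edgeR adjusted p of 8.7e-07) and at a region upstream of it (123, 124 and 132 against 20.4, 39 and 39, -1.90, edgeR adjusted p = 4.7e-14). Regions near NFKBIZ, an inducible nuclear IkB protein (-2.06), TNFSF10, the death ligand TRAIL (-1.61), and TNFAIP3, an inhibitor of NF-kB signaling (-1.34), closed too. Opposite to these, the promoters of the NF-kB subunits RELA (25.5, 32.9 and 27.1 against 60.2, 64.3 and 69.8, a log2 fold change of 1.22) and RELB (26.5, 32.5 and 24.6 against 60.7, 61.5 and 57, 1.09) opened, with edgeR adjusted p of 1.9e-06 and 4.1e-05. CXCL1, a neutrophil chemokine, opened at its promoter (1.0) and at 2 regions downstream (1.18 and 1.52), and a region near the cytokine gene LIF opened by 1.25.

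Among mesenchymal genes, 1 of 29 promoters opened and 3 closed (3.45% and 10.3%, against 3.16% and 2.65% of all; median -0.06), and of 75 distal regions 2 opened and 7 closed (2.67% and 9.33%, against 4.19% and 8.7%; median -0.37). The distal shares and that of opening promoters lay near those of all regions. The promoter of ZEB1, a repressor of epithelial genes, opened from 17.3, 20.4 and 23 to 57.5, 42.6 and 48.7 (1.33, SE 0.24, edgeR adjusted p = 8.5e-06). That of SPARC, a secreted matrix glycoprotein, closed from 72.4, 80.6 and 63.2 to 32.8, 21 and 23.5 (-1.52, SE 0.24, edgeR adjusted p = 1.8e-07), as did 2 distal SPARC regions (-1.35 and -1.26). The groups were apart at both promoters. The receptor kinase genes AXL (-1.34) and PDGFRB (-1.21) closed at their promoters, and regions of NT5E, an ectonucleotidase (-2.16), ZEB2 (-1.82) and CALD1, an actin-binding protein gene (-2.33), closed. A region nearest to PRRX1, a mesenchymal homeobox gene, opened from 5.74, 8.02 and 5.66 to 31.7, 22.2 and 21.2 (1.93), and a region upstream of SNAI2, the repressor SLUG, from 3.22, 2.4 and 2.38 to 18.4, 11.6 and 14.8 (2.40). VIM, the intermediate filament gene of mesenchymal cells, had 54, 57.4 and 64.6 against 83.1, 97.5 and 87.1 at its promoter, and its log2 fold change of 0.61 was under 2-fold.

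Of the 23 epithelial promoters, 2 opened and 1 closed (8.7% and 4.35%, against 3.16% and 2.65% of all), and of 44 distal regions 2 opened and 6 closed (4.55% and 13.6%, against 4.19% and 8.7%). The CLDN4 region shown above, near a tight junction claudin gene, opened from 27.5, 34.8 and 28.8 to 91.9, 94.9 and 116 (1.74, SE 0.18, edgeR adjusted p = 4.7e-14), and a region of GRHL3, an epithelial transcription factor, from 14.1, 14.8 and 15.9 to 41, 60.1 and 64.3 (1.88, edgeR adjusted p = 6.0e-10). KRT19, a keratin of simple epithelia, opened from a low level of 1.68, 3.04 and 2.54 to 5.85, 16.6 and 18.5 (2.63), and CDH3, P-cadherin, by 1.17 at its promoter. In all of these the DOX values were above the vehicle values. CGN, the tight junction protein cingulin, closed from 65, 70.5 and 54.7 to 15.9, 23.5 and 15.8 (-1.82), and a region near ELF3, an epithelial ETS factor, closed (-2.04).

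For TGF-beta and BMP genes the shares of called promoters were low, as they were over all promoter regions. Of 43, only that of SMURF2, a ubiquitin ligase for the pathway, opened (log2 fold change 1.11), and none closed (median 0.29). This was 2.33% opening, where 3.16% of all promoter regions opened and 2.65% closed. Of 117 distal regions 5 opened and 7 closed (4.27% and 5.98%, against 4.19% and 8.7% of all distal regions). The opening region with the largest fold change was upstream of BMP2, a ligand, and went from 0.748, 3.45 and 1.92 to 24.9, 17.3 and 14.9 (3.29, SE 0.52, edgeR adjusted p = 3.1e-07). Regions near the activin antagonist FST (1.11) and the inhibitory factor ID1 (1.06) opened as well. A region near the receptor gene TGFBR1 closed, from 5.49, 4.88 and 6.68 to 0.234, 0 and 0.189. Regions near the receptor gene BMPR1B (-2.30 and -2.54) and LTBP1, a protein that binds latent TGF-beta (-1.74 and -2.29 among 3), closed.

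For matrix and adhesion genes, 1 of 38 promoters closed (2.63%, against 2.65% of all promoter regions), that of the metalloproteinase inhibitor TIMP1 (-1.32). None opened, against 3.16% of all promoter regions. Of 135 distal regions 5 opened and 9 closed (3.7% and 6.67%, against 4.19% and 8.7% of all). An intronic region of COL4A2, a basement membrane collagen, had the highest coverage among them, with 153, 160 and 144 with vehicle and 47.3, 57.4 and 45.5 with DOX (-1.64, SE 0.17, edgeR adjusted p = 5.4e-14). A region of LAMA2, a laminin chain, opened from 8.44, 5.87 and 5.88 to 27.5, 44.6 and 34.9 (2.33, SE 0.32, edgeR adjusted p = 6.1e-09). The integrin gene ITGA3 (1.49) and PLAU, urokinase (1.23), had opening regions. None of the 33 promoters of Hippo and YAP genes was called (median 0.27), where 3.16% of all promoter regions opened and 2.65% closed, and of 123 distal regions 4 opened and 15 closed (3.25% and 12.2%, against 4.19% and 8.7% of all). AMOTL2, an angiomotin that binds YAP, had an opening region (4.38, 4.34 and 2.56 against 41.9, 32.6 and 23.5, 2.99, edgeR adjusted p = 1.8e-10) and its relative AMOTL1 a closing one (-2.16). WWC1, the KIBRA gene, had a region that closed from 35.2, 40.2 and 51.2 to 3.39, 2.17 and 4.5 (-3.46), and WWTR1, which encodes TAZ, one that closed (-1.55).

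The counts that follow stand against 3.16% opening and 2.65% closing of all promoter regions and 4.19% and 8.7% of all distal regions. Of the NOTCH and stemness promoters, 1 of 36 opened (2.78%), that of CD44, a hyaluronan receptor (1.20). By the rule of highest coverage within 3 kb, 2 closed (5.56%), those of LY6E and NOTCH2 (-1.65). The LY6E region counted is the one downstream of a TSS given above. Of 72 distal regions, 1 opened (1.39%) and 5 closed (6.94%), among them one of RBPJ, the DNA-binding factor of NOTCH signaling, from 16.7, 21.6 and 15.9 to 0, 3.21 and 1.11. A region downstream of HES1, a NOTCH target gene, opened from 54.2, 61 and 55.1 to 140, 120 and 117 (1.14, SE 0.15, edgeR adjusted p = 2.1e-09), and regions nearest to the pluripotency factor gene KLF4 (-1.19) and to THY1 (-1.84) closed. Among axon guidance genes, 1 of 41 promoters opened, that of the ephrin receptor EPHA2 (42.6, 41 and 51.1 against 99.9, 98.2 and 102, 1.17), and 1 closed, that of the plexin PLXNA4 (-2.59). Of 128 distal regions of that list, 3 opened (2.34%) and 13 closed (10.2%). Of the AP-1 factor genes, 1 of 24 promoters closed, that of the IFN-inducible BATF2 (-1.65), none opened (median 0.17), and 5 of 30 distal regions closed (16.7%), 2 of them at BACH2 (-1.36 and -2.15). Of the BAF complex genes, the promoters of the ATPase gene SMARCA4 (1.01) and of SMARCB1 (1.15) opened among 27, the second with DOX values of 64.5, 18.9 and 29.7 that were spread widely, and that of BCL7A closed, with 9.4, 10.2 and 5.87 with vehicle and 0 in all 3 DOX libraries. Cell cycle genes had 1 opening promoter of 40, that of the replication licensing factor CDT1 (1.27), a median of 0.34, and no closing promoter. A region near the CDK inhibitor gene CDKN2C opened (1.41), one near CDKN2B closed (-2.43), and CDK6 had 2 closing regions, the one shown above with 2 overlapping ISRE matches (30.7, 30.5 and 21.3 against 8.49, 11.4 and 7.31, -1.62), and 1 opening region (1.29).

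The short sequences of these regions were searched on both strands in 200 bp around the highest bin, as a description. The ISRE core AAANNGAAA was in 19.6% of closing promoters, against 3.31% of opening and 6.08% of all promoter regions, and in 17.6% of closing, 6.92% of opening and 11.6% of all distal regions. The AP-1 site was in 25.2% of closing, 10.4% of opening and 7.32% of all promoter regions, and in 26.9%, 29.1% and 22% of the distal ones, so that at distal regions it was about as frequent in both directions. The E-box CAGGTG, which ZEB1 and related repressors bind, went the other way, with 6.27% of closing, 21.7% of opening and 13.2% of all promoter regions, and 4.22%, 22.4% and 11.9% of distal regions. The RUNX core TGTGGT was in 20.3% of closing, 9.94% of opening and 9.53% of all promoter regions, but in 22.6%, 22.5% and 18.7% of the distal ones. The TEAD core GGAATG was in 19.5% of closing, 8.7% of opening and 9.95% of all promoter regions, whereas at distal regions it was more frequent in opening (23.5%) than in closing (19.1%) or all regions (17.2%). The NF-kB sequence GGGANTTTC was in 2.15% of closing and 0.944% of all promoter regions, and in 1.96% and 1.08% of distal regions. The ETS sequence CCGGAAG, common at housekeeping promoters, was in 2.15% of closing against 8.54% of all promoter regions, and NRF1 (GCGCATGCG) in none of the 606 closing promoters against 1.45% of all; RFX (GTTGCCATG) was in at most 0.414% of any of these sets, and CTCF (CAGGGGGCG) in 2.3% of all and 0.165% of closing promoters. Base composition moves with these shares. Within each of the 5 bins by GC content, the ISRE core was in a larger share of closing than of all regions (25.5% against 20.4% in the lowest, 11.4% against 7.12% in the middle), and CAGGTG in a larger share of opening than of all regions (11.3% against 5.78%, and 28.2% against 14.5%). The AP-1 site was in 25.9% of closing and 23.9% of all regions in the lowest bin, and in 27.5% and 17.3% in the middle. Opening regions held it more often still in both bins (28.5% and 33.9%). At higher GC content the order was the reverse. In the bin of 58% to 67% GC it was in 28.6% of closing, 12% of opening and 7.43% of all regions. The highest bin had it in 8.57%, 1.47% and 1.91%, with only 35 closing regions. These bins take promoter and distal regions together.

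**Figure D4:**
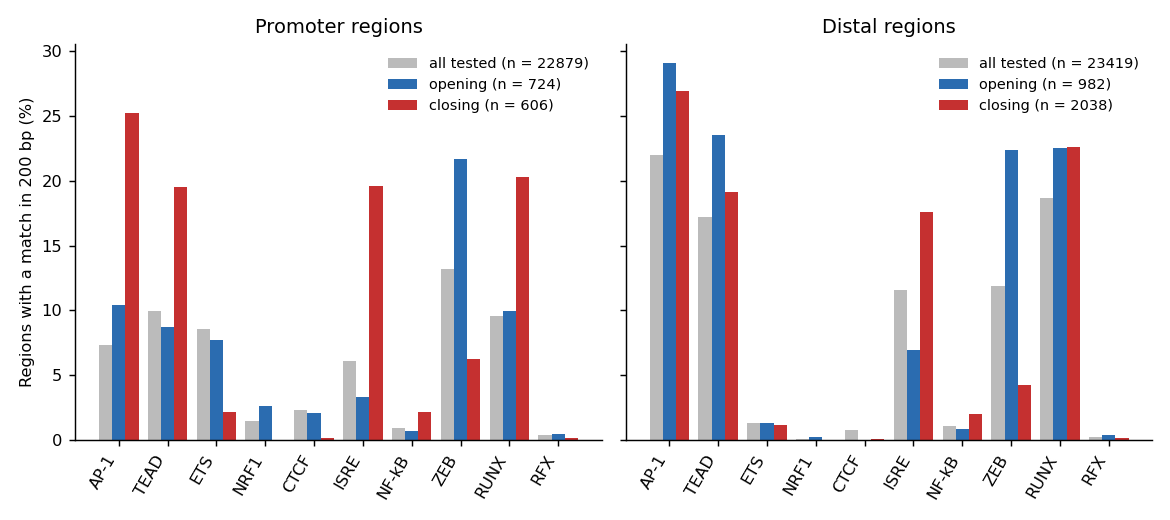
Share (%) of promoter (left) and distal regions (right) with at least 1 match to each of 10 short sequences within 200 bp around the highest bin, for all tested (gray), opening (blue) and closing regions (red). The ISRE core is most frequent in closing regions (19.6% and 17.6%) and the ZEB E-box in opening regions (21.7% and 22.4%).

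Some genes had several closing regions, where 5.71% of all regions closed. These genes were picked for their number of calls, which was not set against the number of regions tested at each. COL15A1, a collagen of basement membrane zones, and NAV2, a neuron navigator gene, had 6 closing regions each, and TARBP1, an RNA methyltransferase family gene, CSGALNACT1, a chondroitin sulfate synthase, and TNS3, a focal adhesion tensin, had 5 each. A COL15A1 region upstream of the gene went from 31.9, 32.8 and 32.7 in vehicle to 2.37, 5.44 and 3.94 with DOX (chromosome 9, 98909401 to 98909500; log2 fold change -2.81, SE 0.43, edgeR adjusted p = 1.4e-07). The 5 regions of TARBP1 all lay between genes, and one (chromosome 1, 234533301 to 234533400, with an ISRE match) had 52.7, 54.1 and 47.9 against 5, 5.94 and 2.19 (-3.48, SE 0.39, edgeR adjusted p = 2.0e-12). An intronic region of CSGALNACT1 closed with 73.7, 69.9 and 83.7 against 11.7, 19.3 and 16.7 (-2.28, edgeR adjusted p = 1.1e-11), while the CHST11 promoter, of the same biosynthetic pathway, opened. The 5 TNS3 regions, all upstream of the gene, changed by -1.16 to -2.12, and IRF1 followed with 4 closing regions.

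The genes with the most opening regions were all near the distal end of the long arm of chromosome 8. Here, too, the counts were not set against the number of regions tested at each gene. TSNARE1 had 12 opening regions, the adhesion receptor gene ADGRB1 10, ZC3H3 7, the transcription factor gene MAFA 7, EPPK1, which encodes epiplakin, 6, and the phosphatase gene PTP4A3 6. They were thinly covered: the most changed of the TSNARE1 regions had 2.96, 1.64 and 0.246 with vehicle and 17, 5.82 and 18.4 with DOX, and the DOX values varied more than the vehicle values. The start of this stretch of chromosome 8 was set after the values were seen (first region at 139016201). Of its 736 regions, 82.7% had a positive log2 fold change, and the median was 0.99. In the stretch 146 regions opened (19.8%, against 3.68% of all regions) and 6 closed, LY6E among the latter. On the rest of chromosome 8, the median of 3179 regions was -0.04, with 121 opening and 194 closing. The stretch held 8.56% of all opening regions and took 0.948% to 0.974% of the summed coverage in the vehicle and 1.2% to 1.41% in the DOX libraries. Its regions had a median unscaled coverage of 8.09 with vehicle and 4.33 in DOX libraries, less than the 4.24-fold difference of the libraries, and a median GC content of 63%. The distal end of chromosome 20 (260 regions from 62011001 on) had a median of 0.74, with 34 opening and 4 closing regions. Over windows of 2 Mb with at least 15 regions, 1084 in all, the median of the medians was -0.11, 10 were over 0.5 and 114 under -0.5. The highest were not these ends but windows of 15 regions each on chromosome 2 from 88 Mb (1.80) and on chromosome 9 from 40 Mb (1.60). DNA copy number was not measured, and its part in these stretches was not tested.

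**Figure D5:**
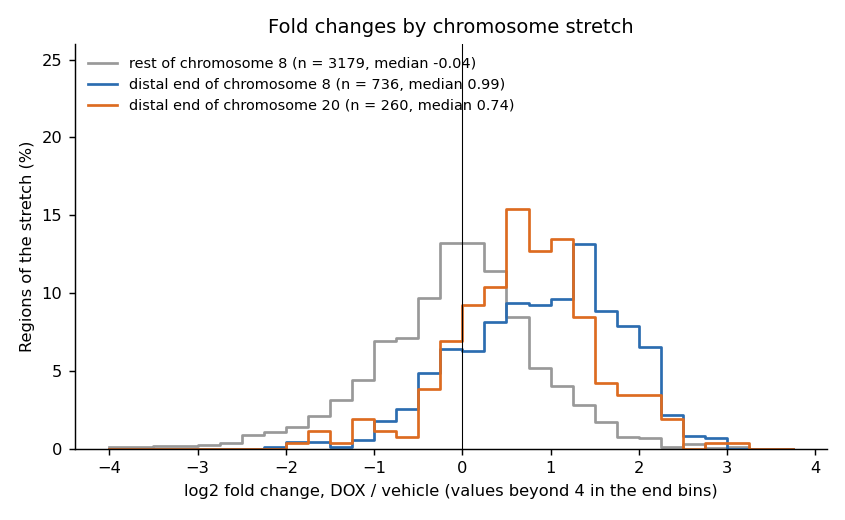
Distribution of log2 fold changes (DOX over vehicle) as a share of the regions (%) at the distal ends of chromosomes 8 (blue) and 20 (orange) and on the rest of chromosome 8 (gray). Both ends are shifted to the right as a whole, with medians of 0.99 and 0.74 against -0.04.

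The response of BT-549 differed from that of DU-145 at many of the regions that both tables hold. Each region was paired with the best covered DU-145 region that overlapped it. Each line was read at its own highest bin, so that the bins compared need not coincide. By a test of the interaction of cell line and DOX, the effect differed at 6944 of 32071 regions (21.7%, edgeR, adjusted p under 0.01), and was the higher in BT-549 at 3323 of them. OAS2 and MX1 were among them: the log2 fold change of OAS2 was -2.26 in BT-549 and 0.14 in DU-145 (difference -2.46, SE 0.44, edgeR adjusted p = 2.8e-06), and that of MX1 -2.14 and -0.26 (difference -1.95, SE 0.36, edgeR adjusted p = 8.2e-06). LY6E, by contrast, was -2.20 and -1.77, a difference that did not pass (-0.49, SE 0.38, edgeR adjusted p = 0.344). CHST11 opened in BT-549 by 2.97 against 1.55 in DU-145 (difference 1.36, SE 0.26), and JUN was 0.74 and -0.28 (difference 0.95, SE 0.16, edgeR adjusted p = 5.6e-07). The joint fit has its own scaling factors, so that a difference need not equal that of the 2 fold changes, and the DOX libraries were shallow in BT-549 only.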

How the data were processed

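ATAC-seq libraries of BT-549/tet-MUC1shRNA cells, 3 with vehicle and 3 with DOX, were analysed from tables of 472994 bins of 100 bp. The authors aligned reads to GRCh38 with BWA, removed duplicates with Picard, called peaks per library with MACS2 2.2.7.1 (MACS3 is also listed in the submitters' processing notes), kept regions found in at least 3 libraries and deposited the mean fragment coverage of each bin, treated here as an estimated count (expected count; 6.86% of bin values are whole). The peak files deposited by the authors give a fold enrichment ratio and −log10 p and q values per peak; the presence of a peak and its fold enrichment were used.

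For each region the bin with the highest unscaled mean over the 6 libraries was rounded to a whole number. The deeper vehicle libraries weigh most in this choice of bin. Regions summing to under 10 were to be dropped, and none was. edgeR 4.0.16 (R 4.3.3; TMM, robust quasi-likelihood fit, Benjamini-Hochberg adjustment over all regions) was the main test; limma 3.58.1 and DESeq2 1.42.0 were alternatives. SEs are the log2 fold change divided by the square root of F. Calling was tested on simulated data. Genes are the nearest protein-coding TSS in the GENCODE v44 annotation, and a promoter region lies within 3 kb of any TSS. Precision is limited by the DOX libraries, at a median of 3.88 to 5.2 fragments per region. Same-numbered libraries did not deviate together (r 0.009 to 0.05), so the main fit has no replicate block.

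Named by rule were the 6 study genes, per direction the 8 promoter (within 1 kb) and 8 distal regions (within 100 kb) with the largest fold change among those with a mean coverage of at least 20, a group sum of at least 10 and no overlap between groups, the 6 genes with the most called regions, up to 4 genes per list and direction by adjusted p, and the 5 best covered closing regions with all DOX values at 0. Some items that these rules name are not reported here. Other list members and loci named were chosen after their values were seen. The members and lists were chosen with earlier results of these data known.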

Additional observations from a re-analysis of the deposited data

Results flagged for a closer look

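Flagged because the effect of DOX differed between BT-549 and DU-145 by a test of the interaction (edgeR, adjusted p under 0.01) were 6944 of the 32071 regions in both tables. Of the 36 regions reported for the study genes or for their fold change, 30 had a DU-145 value and 23 differed, 21 of them with a smaller change in DU-145. These regions were chosen for a large change in BT-549, so that the smaller change in DU-145 is a description. Values are BT-549 minus DU-145, as log2 fold changes, with each line read at its own highest bin.

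Among promoters that opened in BT-549 the difference was 1.36 for CHST11, 1.92 for CSNK1G2, 1.86 for CCDC9, 1.24 for ENTPD6, 1.60 for CBX8, 1.83 for MAP2K7 and 1.74 for NOC2L. It was 0.71 for EGR1 and 0.95 for JUN. Among opening distal regions it was 2.73 near FUT8, 2.36 in CYFIP2, 2.21 in PXN and 2.30 in BCAR3.

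Among promoters that closed in BT-549 the difference was -2.73 for CFB, -1.43 for C1S, -2.46 for OAS2, -1.95 for MX1, -2.25 for PSMG3, -1.40 for BCL2L13, -1.95 for PPP2R1B and -3.90 for PPA2, whose log2 fold change in DU-145 was 2.0. Among closing distal regions it was -2.65 for IRF1 and -2.52 for SOD2. The groups of 3 libraries are too small for a test of single outlying values.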

How the results depend on the processing

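The main counts were 1706 opening and 2644 closing regions. DESeq2 gave 1093 and 911, limma-trend 996 and 1382, and vehicle libraries thinned to the DOX depth 1034 and 1403. A mean coverage of at least 10 left 1115 opening regions, an adjusted p under 0.01 at any fold gave 2968, and an adjusted p under 0.05 with the 2-fold limit 4214 closing regions. Leaving out 1 library gave 1220 to 1556 opening and 1506 to 2439 closing regions. Scaling to library totals gave 1462 and 3043, so that 32.5% of calls were opening against 39.2%. The bin with the highest mean after scaling gave 1791 opening and 2762 closing regions, and the sum of all bins gave 2176 and 3327. Without both chromosome ends and chromosome Y, an alternative chosen after seeing the data, 1508 regions opened and 2634 closed. With the replicate number as a block, 1536 opened and 2453 closed, and with the block and GC offsets 1398 and 1808; the libraries share only a number, since same-numbered pairs correlated at r 0.009, 0.05 and 0.035.

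MUC1 was -0.60 with loess offsets and 0.12 for the sum of bins. NOTCH1 was -0.02 with the replicate block and GC offsets, 1.04 for the highest bin after scaling and 0.55 for the sum of bins. EGR1 was -0.08 with loess offsets, -0.21 for the sum of bins and 0.54 with thinned vehicle libraries. JUN was 0.35 with loess offsets, and ARID1A lay between -0.22 and 0.14 with 1 library left out. PSMG3 was 0.17 for the highest bin after scaling and -0.31 for the sum of bins, and BCL2L13 was -2.76 by limma-trend. The cause of these changes was not tested beyond what each setting alters. Beside the main counts and MUC1, 38 results had alternative values, 1 of them the count of closing IFN promoters. Of these values, 709 stayed the same, 6 changed sign, 3 came under an adjusted p of 0.01, 3 went over it and 1 count moved. A fold change stayed the same if it kept its direction and its side of that limit. The count did so if it stayed within a set fold of the main count. In 5 equal bins of regions by coverage, from lowest to highest, 1.02%, 2.6%, 7.08%, 11.9% and 5.96% were called closing; the part of depth in this was not tested.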
